A study of Mus musculus with 16 samples.

Results

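Cells make cholesterol, take it up and export it, and 8 genes of these routes were followed in mouse splenic B cells. They were Hmgcs1 and Sqle, enzymes of synthesis, Insig1, Srebf1 and Srebf2, which control synthesis, and Abca1, Abcg1 and Apoe, which act in export and transport. The genes were picked by symbol, with earlier results of these data known, and are 8 of the 27928 genes in the deposited table. All 8 passed the filter for testing, a mean of at least 10 normalized counts, as did 14761 genes in all.

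The study asked how loss of TFII-I, the transcription factor encoded by Gtf2i, alters B cells of the follicles (FO) and of the marginal zone (MZ). The mice were C57BL/6 and were either WT or Gtf2i fl/flxCD19cre+ (cKO), in which a Cre expressed in the B lineage deletes the floxed Gtf2i alleles. FO B cells were sorted as CD21 low and CD23 high and MZ B cells as CD21 high and CD23 low from the spleens of young adult mice, with no treatment. There were 2 RNA-seq libraries in each of the 4 groups, namely WT FO, WT MZ, cKO FO and cKO MZ. No group carried Cre without floxed alleles, and the sex of the mice and whether they were pooled were not given in the sources used here. The labels do not say that replicates came from separate animals, so each p may measure only technical spread.

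Cholesterol is built from acetyl-CoA through mevalonate, squalene and a series of sterols. When sterols in the endoplasmic reticulum are low, SCAP carries the SREBP proteins to the Golgi for cleavage, and the released factors switch on genes of sterol synthesis and uptake. INSIG proteins hold SCAP back when sterols are plentiful. Oxysterols instead activate LXR, a nuclear receptor that pairs with RXR and switches on the exporters ABCA1 and ABCG1. FO B cells recirculate through lymphoid follicles, whereas MZ B cells stay at the edge of the splenic white pulp and respond rapidly to blood-borne antigens.

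The promoters of the members that were higher in FO B cells are shown first, since SREBP and its partner NF-Y bind short motifs there. RefSeq windows of GRCm38.p6, from 250 bases before to 50 after the start of transcription, were found for 6 of the 8 genes, and not for Sqle and Abcg1. Below are the 250 bases before the RefSeq start, read 5′ to 3′ on the strand of the gene, of Hmgcs1 (chr13:119690101-119690350, plus strand), Insig1 (chr5:28071162-28071411, plus strand), Srebf2 (chr15:82147019-82147268, plus strand) and Abca1 (chr4:53159896-53160145, minus strand). Capitals mark a sterol regulatory element core (TCACNCCAC), an NF-Y box (CCAAT) or an E-box (CACGTG), each on either strand, so that a box on the other strand reads ATTGG.
Hmgcs1: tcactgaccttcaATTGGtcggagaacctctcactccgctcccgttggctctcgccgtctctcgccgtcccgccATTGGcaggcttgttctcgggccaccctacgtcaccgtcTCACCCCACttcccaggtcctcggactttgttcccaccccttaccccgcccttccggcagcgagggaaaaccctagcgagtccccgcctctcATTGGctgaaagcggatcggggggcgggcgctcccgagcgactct
Insig1: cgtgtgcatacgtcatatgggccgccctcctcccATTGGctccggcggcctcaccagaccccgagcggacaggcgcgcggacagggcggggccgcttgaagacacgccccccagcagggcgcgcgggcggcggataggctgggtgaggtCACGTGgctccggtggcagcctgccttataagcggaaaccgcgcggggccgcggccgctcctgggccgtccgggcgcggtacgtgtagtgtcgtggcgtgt
Srebf2: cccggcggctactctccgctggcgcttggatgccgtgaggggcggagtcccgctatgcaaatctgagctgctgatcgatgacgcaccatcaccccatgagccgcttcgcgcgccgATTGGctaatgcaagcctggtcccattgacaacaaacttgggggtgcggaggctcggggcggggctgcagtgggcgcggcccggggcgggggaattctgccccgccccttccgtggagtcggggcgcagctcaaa
Abca1: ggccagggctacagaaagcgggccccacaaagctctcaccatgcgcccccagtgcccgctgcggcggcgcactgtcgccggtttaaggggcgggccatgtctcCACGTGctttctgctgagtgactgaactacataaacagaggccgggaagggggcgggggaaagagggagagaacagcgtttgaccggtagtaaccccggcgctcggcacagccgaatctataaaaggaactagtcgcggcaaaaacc

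Of these promoters, that of Hmgcs1 held the sterol regulatory element core, as TCACCCCAC beginning 137 bases before the start. The core was found in 1.24% of all 32851 windows, and in 1 of the 68 windows of the other lipid genes, that of Stard3. Of those genes, 52 had a window. The Hmgcs1 window also held 4 NF-Y boxes, of which 3 lie in the printed stretch. The Insig1 window held an NF-Y box and an E-box, that of Srebf2 an NF-Y box, and that of Abca1 an E-box. Windows of Srebf1, which was not called, held NF-Y boxes too, so 4 of the 6 members with a window had one. The windows of Apoe held none of the motifs. NF-Y boxes stood in 37.4% of all windows, and in 15 of the 19 windows of the sterol synthesis genes. Those windows belonged to 15 of the 16 genes of that list that had a window. E-boxes stood in 7.15% of all windows. An exact match to the consensus direct repeat of LXR was in 0.0152% of all windows and in none of the members', Abca1 included. Repeats that differ from the consensus by a base or more were not searched for, so LXR sites may be present. Near matches to the sterol regulatory element core were not searched for either. A match of letters shows neither binding nor use, and a window without a match says nothing of the factor.

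The labels were checked first. Normalized counts of Gtf2i ranged from 1992 to 2864 in WT and from 1523 to 1889 in cKO libraries. Counts over the whole gene also take in any exons that are not deleted, and the source of the Gtf2i RNA in cKO was not tested. Cr2 and Fcer2a, which encode the CD21 and CD23 of the sort, separated MZ from FO libraries without overlap. Total reads on genes ranged from 21546552 to 25083552. The WT and cKO libraries also differed in sex-linked RNA, with the Y-linked Ddx3y at most 6.34 in WT and at least 2682 in cKO. Genotype thus cannot be told apart from sex in any comparison of cKO with WT here. The cKO MZ replicate 1 library stood apart in red cell and granulocyte markers, with a summed level of 14413 for 7 erythroid genes against at most 1071 elsewhere and of 1849 for 8 granulocyte genes against at most 103. Over the 8 fits that each leave out a library, that one included, the FO against MZ differences of the members called in both genotypes moved little, from 0.88 to 1.07 for Hmgcs1, 0.98 to 1.15 for Sqle, 0.66 to 0.79 for Srebf2 and 1.32 to 1.53 for Abca1 on the log2 scale over both genotypes.

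Among themselves the 8 genes differed widely in level. Per kilobase of exon, the mean over the 8 libraries was 2396 normalized counts for Apoe, 1259 for Srebf2, 447 for Abca1, 426 for Srebf1, 378 for Insig1, 362 for Abcg1, 157 for Hmgcs1 and 82.7 for Sqle. Apoe stood above Srebf2 in every library, since it ranged from 2085 to 2783 and Srebf2 from 787 to 1722. The order of Abca1, Srebf1, Insig1 and Abcg1 changed with the subset. In FO libraries Abca1, at 635 to 661, was above Srebf1 (413 to 501.5), Insig1 (323 to 555) and Abcg1 (246 to 349). In MZ libraries Abca1, at 217 to 309, was below Srebf1 (381 to 433) and Abcg1 (349 to 443.5) and overlapped Insig1 (219 to 356). Hmgcs1 lay above Sqle within each subset, at 186 to 263 against 102 to 128 in FO and 95.2 to 126 against 47.9 to 64.5 in MZ.

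FO B cells had more RNA of the synthesis enzymes Hmgcs1 and Sqle, of Srebf2 and of the exporter Abca1 than MZ B cells. These 4 genes were called higher in FO in each genotype, between 1.58-fold and 2.84-fold, and Insig1 was called when both genotypes were fitted together. Abcg1 lay the other way by less than 1.5-fold, and Srebf1 and Apoe were not called. Here a called gene is one that differed by 1.5-fold or more with a limma p of 0.05 or less after Benjamini-Hochberg adjustment, on log2 of the normalized count plus 1. The 4 of 8 members called higher in FO compare with 4.62% of all genes tested in WT and 5.54% in cKO, and the 5 of 8 over both genotypes with 7.94%. No member was called higher in MZ, where 7.41% of all genes were called in WT, 8.18% in cKO and 11.6% over both. In bulk samples like these, fewer cells of a type and less RNA per cell cannot be told apart.

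**Figure D1:**
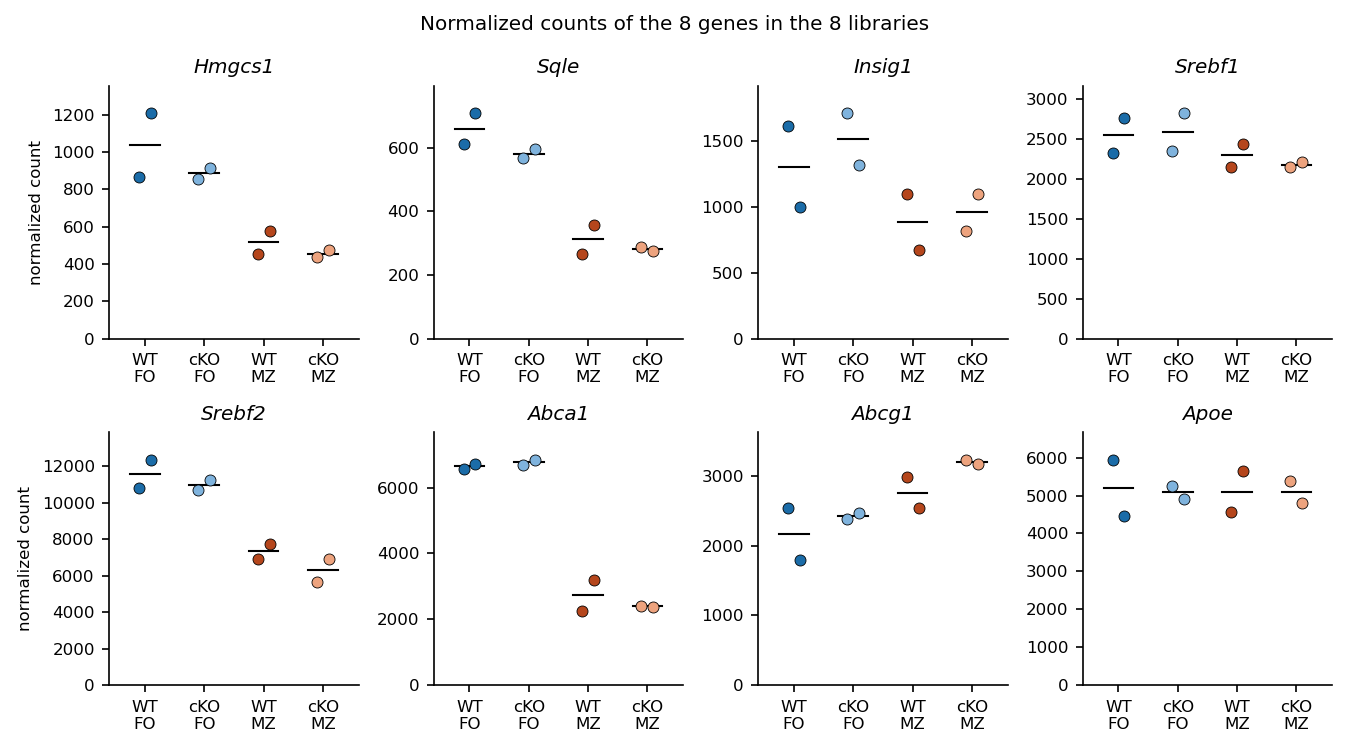
Normalized counts (vertical axes, linear from 0) of each of the 8 genes, with a point per library, the groups on the horizontal axes and a bar at the mean of the 2 libraries of a group. The FO points of Hmgcs1, Sqle, Srebf2 and Abca1 all sit above the MZ points, those of Insig1 overlap (999 to 1716 against 677 to 1100.2), and those of Apoe intermingle.

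Hmgcs1 (ENSMUSG00000093930.2, chr13:119690379-119708260) encodes the cytosolic synthase that makes HMG-CoA at the head of the mevalonate pathway. The WT FO libraries gave 867 and 1209 normalized counts and the WT MZ libraries 454 and 578, while cKO FO libraries gave 854 and 916 and cKO MZ libraries 438 and 472. Every FO library lay above every MZ library. On the log2 scale FO exceeded MZ by 1.00 in WT (standard error 0.18, limma adjusted p = 0.00932) and by 0.96 in cKO (adjusted p = 0.00964). Over both genotypes it was 0.98, a 1.97-fold difference with a 95% interval of 0.71 to 1.25 on the log2 scale (adjusted p = 0.000274). The call in cKO missed the threshold without cKO FO replicate 1 (adjusted p = 0.052), cKO FO replicate 2 (0.0617) or cKO MZ replicate 1 (0.0769), with log2 differences of 0.90 to 1.01. The call in WT missed it when only the 4 WT libraries were fitted (0.0652).

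Sqle (ENSMUSG00000022351.14, chr15:59315077-59331192) encodes squalene epoxidase, which adds oxygen to squalene in the first oxygen-dependent step toward the sterol rings. Normalized counts reached 611 and 709.7 for WT FO against 266 and 358 for WT MZ, with 568 and 597 for cKO FO against 287 and 275 for cKO MZ. The lowest FO library was thus well above the highest MZ library. FO exceeded MZ by 1.09 in log2 units in WT (standard error 0.16, limma adjusted p = 0.00422) and by 1.05 in cKO (adjusted p = 0.0044). With both genotypes together Sqle was 2.10-fold higher in FO (log2 difference 1.07, 95% interval 0.83 to 1.31, adjusted p = 9.3e-05).

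Srebf2 (ENSMUSG00000022463.8, chr15:82147181-82205379) encodes SREBP-2, the factor that chiefly drives cholesterol synthesis and uptake genes. The WT FO libraries gave 10788 and 12373.5 normalized counts and the WT MZ libraries 6941 and 7726, while cKO FO libraries gave 10694 and 11242 and cKO MZ libraries 5654 and 6933. No MZ library reached an FO library. The log2 difference was 0.66 in WT (standard error 0.12, limma adjusted p = 0.0109), 0.81 in cKO (adjusted p = 0.00408) and 0.73 over both genotypes (1.66-fold, 95% interval 0.54 to 0.92, adjusted p = 0.000207). In WT the call was lost without WT FO replicate 2 (0.56, adjusted p = 0.0522) or WT MZ replicate 1 (0.58, adjusted p = 0.0579), and fell under 1.5-fold with quantile normalization (0.56).

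Srebf1 (ENSMUSG00000020538.15, chr11:60199089-60222581) encodes SREBP-1, whose isoforms act more on fatty acid genes and whose transcription LXR can raise. Normalized counts reached 2327 and 2762 for WT FO against 2152 and 2438 for WT MZ, with 2346 and 2825 for cKO FO against 2145 and 2214 for cKO MZ. In WT the FO and MZ libraries overlapped, and in cKO they did not. The log2 differences between FO and MZ of 0.15 in WT (limma adjusted p = 0.499), 0.24 in cKO (0.231) and 0.19 over both (0.102) did not pass the test. The interval over both genotypes ran from 0.0022 to 0.38, all below the 0.585 that 1.5-fold corresponds to and below the interval of Srebf2. Counts of the whole gene do not separate its isoforms.

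Insig1 (ENSMUSG00000045294.11, chr5:28071363-28078662) encodes the anchor that retains SCAP and is itself switched on by SREBP. The WT FO libraries gave 1619 and 999 normalized counts and the WT MZ libraries 1099.9 and 677, while cKO FO libraries gave 1716 and 1319 and cKO MZ libraries 820.3 and 1100.2. In WT the replicates of a group differed by as much as the subsets did and the FO and MZ ranges overlapped, whereas in cKO they did not overlap. The log2 difference was 0.56 in WT (standard error 0.30, limma adjusted p = 0.262) and 0.66 in cKO (adjusted p = 0.171), neither called. In cKO it was called when only the 4 cKO libraries were fitted, by limma (adjusted p = 0.0346) or DESeq2 (0.00542), and by limma with replicate number as a block after the cKO MZ numbers were exchanged (0.00319), a fit chosen after seeing the data. Over both genotypes it was 0.61 (1.53-fold, 95% interval 0.16 to 1.06, adjusted p = 0.0393). That call was lost on leaving out any library but WT FO replicate 2 or WT MZ replicate 1, with adjusted p up to 0.118.

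Abca1 (ENSMUSG00000015243.4, chr4:53030787-53159895) encodes the transporter that hands cholesterol and phospholipid to lipid-poor apolipoproteins. Of the 8 genes it differed most between the subsets. Normalized counts reached 6577 and 6714 for WT FO against 2249 and 3206 for WT MZ, with 6684 and 6854 for cKO FO against 2417 and 2357 for cKO MZ. The 4 FO libraries lay close together and far above the highest MZ library. The log2 difference was 1.31 in WT (2.47-fold, standard error 0.15, limma adjusted p = 0.00133) and 1.503 in cKO (2.84-fold, adjusted p = 0.000637). Fitting both genotypes gave 1.41 (2.65-fold, 95% interval 1.17 to 1.64, adjusted p = 1.66e-05).

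Abcg1 (ENSMUSG00000024030.7, chr17:31057675-31117988), like Abca1 a target of LXR, encodes a half-transporter that passes cholesterol to HDL. The WT FO libraries gave 2547 and 1792 normalized counts and the WT MZ libraries 2979 and 2546, while cKO FO libraries gave 2386 and 2475 and cKO MZ libraries 3236 and 3171. The cKO subsets did not overlap, whereas in WT the highest FO and the lowest MZ library were level. MZ exceeded FO, with log2 differences of FO against MZ of -0.37 (limma adjusted p = 0.17) for WT and -0.40 (0.125) for cKO. Over both genotypes the difference was -0.38 (95% interval -0.62 to -0.14, adjusted p = 0.019), past the p threshold but 1.30-fold and so not called. Without WT FO replicate 1 the WT difference became -0.62 (adjusted p = 0.0254) and was called. The intervals of Abca1 and Abcg1 lay on opposite sides of 0 in cKO and over both genotypes, while in WT that of Abcg1 contained 0.

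Apoe (ENSMUSG00000002985.16, chr7:19696109-19699188) encodes apolipoprotein E, a lipid carrier made in abundance by macrophages. Normalized counts reached 5949.7 and 4458 for WT FO against 4558 and 5648 for WT MZ, with 5247 and 4921 for cKO FO against 5393 and 4813 for cKO MZ. FO and MZ overlapped in both genotypes. The log2 difference over both genotypes was 0.01 with a 95% interval of -0.23 to 0.24 (limma adjusted p = 0.957), and the values of 0.02 in WT and -0.0039 in cKO changed sign on leaving out single libraries. Macrophage RNA was also present, with 11 of 14 macrophage markers above 10 in every library and none of the 14 at 0. Their summed level was 946 to 1628 in WT FO, 1186 to 2591 in WT MZ, 1049 to 1561 in cKO FO and 1953 to 2827 in cKO MZ, and 4 of the 12 tested were called higher in MZ over both genotypes. Its part in the level of Apoe, Abca1 or Abcg1 was not tested.

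**Figure D2:**
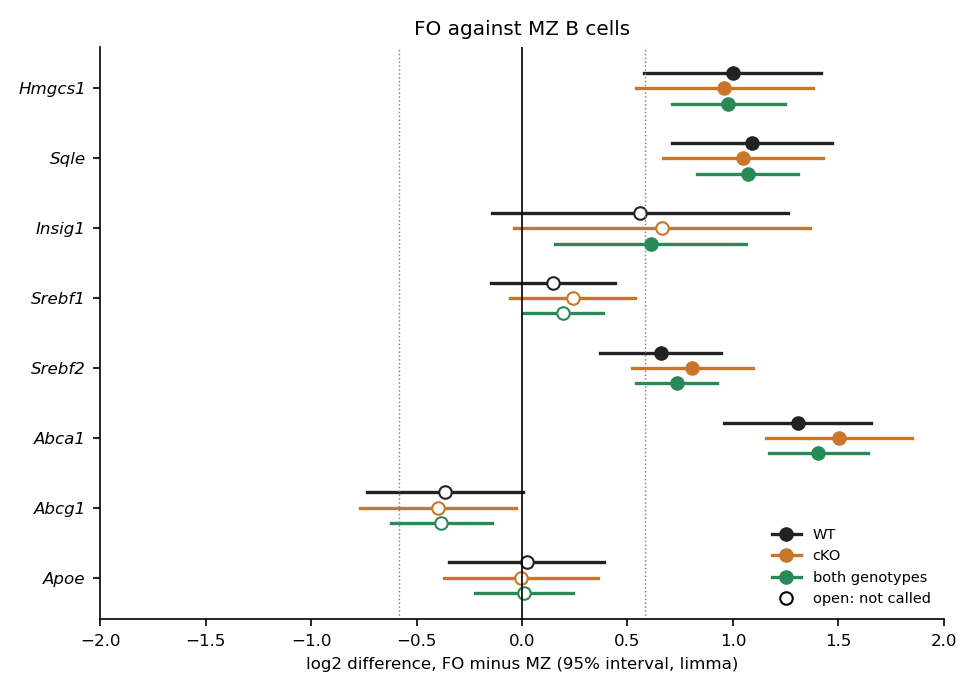
Log2 difference, FO minus MZ (horizontal axis) for each gene, with 95% intervals from limma in WT, in cKO and over both genotypes; filled points were called, and dotted lines mark 1.5-fold. The intervals of Hmgcs1, Sqle, Srebf2 and Abca1 lie above 0 in both genotypes, while those of Apoe straddle it (-0.23 to 0.24 over both).

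The other genes of the pathway, 71 in 6 lists, placed these members among their neighbours. Of the 63 that were tested, 12 were higher in FO and 5 in MZ in WT, 10 and 5 in cKO, and 14 and 8 over both genotypes. The counts higher in MZ are near the shares of all genes given above. Among the 21 sterol synthesis genes, Hmgcs1 and Sqle included, 8 in WT, 6 in cKO and 9 over both were called higher in FO, and 0 were called lower by limma. Of all genes tested, 4.62%, 5.54% and 7.94% were called higher in FO, and 7.41%, 8.18% and 11.6% lower. The median log2 difference of the list over both genotypes was 0.56, against 0.0045 for all genes tested, and 0.35 without the 2 members.

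The enzymes called higher in FO over both genotypes lay at several steps of the route after mevalonate. Idi1, the isomerase of isopentenyl diphosphate, differed by 0.89 (limma adjusted p = 0.00979), from 45.3 to 64.9 normalized counts in FO against 25.9 to 34 in MZ. Fdft1, squalene synthase, differed by 0.67 (adjusted p = 0.00236), and Lss, which closes the sterol rings after Sqle, by 0.63 (adjusted p = 0.000173). Cyp51 (0.70), Msmo1 (0.71), Lbr (0.64) and Sc5d (0.67), which remove methyl groups from the rings or reduce and desaturate them, were also called. Without WT FO replicate 2 Msmo1 was at 0.56, and without cKO FO replicate 1 Sc5d was at 0.57, each then under 1.5-fold, as was Lbr (0.53) with quantile normalization. In WT the calls of Cyp51, Fdft1 and Sc5d were lost in 6, 7 and 6 of the 8 fits without a library. In cKO they were lost in 4, 4 and 3, whereas over both genotypes those of Cyp51 and Fdft1 held in all 8.

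Not all of the route lay on the side of Hmgcs1. Of the 21 genes, 6 had values below 0, down to -0.31 for Ebp (adjusted p = 0.0335) and -0.25 for Mvd (adjusted p = 0.0475), neither reaching 1.5-fold.

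Of the 14 tested genes of uptake and transport, 4 were called higher in FO and 2 in MZ over both genotypes. The shares of all genes tested were 7.94% and 11.6%, so the count in MZ is near its share. Mylip, a ubiquitin ligase gene that LXR switches on, was higher in FO by 0.88 (limma adjusted p = 0.000368). In cKO alone its call was lost without cKO FO replicate 2 or either cKO MZ library (adjusted p up to 0.087).

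The GRAMD1 proteins carry cholesterol from the plasma membrane to the endoplasmic reticulum, and their genes split between the subsets. Gramd1a was higher in FO by 0.67 (limma adjusted p = 6.62e-05, but 0.53 with quantile normalization). Gramd1b was higher in MZ, with 506 to 569.7 normalized counts in FO and 1268 to 1601 in MZ (log2 difference -1.38, adjusted p = 6.51e-06). Gramd1c was also higher in MZ (-0.61, adjusted p = 0.00453), though under 1.5-fold, from -0.54 to -0.58, without WT FO replicate 1 or 2, WT MZ replicate 1 or cKO MZ replicate 2, and at -0.45 with quantile normalization.

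Among the 10 tested genes of efflux and LXR, Abca1, Abca7 and Pltp were called higher in FO and Rxra in MZ, in each genotype. Of all genes tested, 4.62% in WT and 5.54% in cKO were called higher in FO, and 7.41% and 8.18% in MZ. The count in MZ is near that share. Abca7, a relative of Abca1, had 5656 to 6291 normalized counts in FO and 3238 to 3602 in MZ (0.77, limma adjusted p = 1.37e-05). Pltp, a phospholipid transfer protein of plasma, differed by 0.83 (adjusted p = 0.000276). Rxra, a partner of LXR, was low at 24.6 to 37.2 in FO and 59.7 to 92.4 in MZ (-1.26, adjusted p = 0.0017). Rxrb, another RXR gene, stood at 3071 to 3297 in FO and 3088 to 3424 in MZ and was not called. The Rxra call was lost in 5 of 8 fits without a library in WT and 4 of 8 in cKO, and in none over both genotypes. The median of this list over both genotypes was 0.0099, and that of uptake and transport 0.073, both near the 0.0045 of all genes.

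Of the 11 tested fatty acid genes, some of which SREBP also controls, 1 was called higher in FO and 4 in MZ over both genotypes, where 7.94% and 11.6% of all genes were, and the median of the list was 0.051. Over both genotypes Scd2, a stearoyl-CoA desaturase, was higher in MZ (-1.61, limma adjusted p = 1.23e-05), at 1736 to 2240.5 normalized counts in FO and 5416 to 7049 in MZ. Scd1, another such desaturase, had more counts, 28917 to 43480 in FO and 22461 to 35797 in MZ, and was not called. Like Scd2, Elovl6 (-0.90), Fads1 (-1.13) and Fads2 (-1.73), which lengthen or desaturate fatty acids, were called higher in MZ. Acss2, an acetyl-CoA synthetase, was called higher in FO (0.86, limma adjusted p = 0.00113). Fads1 and Fads2 rested on low counts, with at most 71.8 in any library, and neither call was stable. That of Fads1 was lost without WT FO replicate 1, WT MZ replicate 2, cKO FO replicate 2 or cKO MZ replicate 1 (adjusted p up to 0.0847). That of Fads2 was lost without WT FO replicate 1, WT MZ replicate 1, cKO FO replicate 1 or either cKO MZ library (adjusted p up to 0.0751), and with quantile normalization (0.0578). Soat2, which esterifies cholesterol, was higher in MZ (-2.80, adjusted p = 0.00278) with 15.4 to 28.9 normalized counts there and 1 to 7.61 in FO, where libraries sit at or near a few reads. In addition, 7 genes of the lists were too low to test, among them Ch25h at no more than 2.24 and Vldlr at no more than 39.2.

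**Figure D3:**
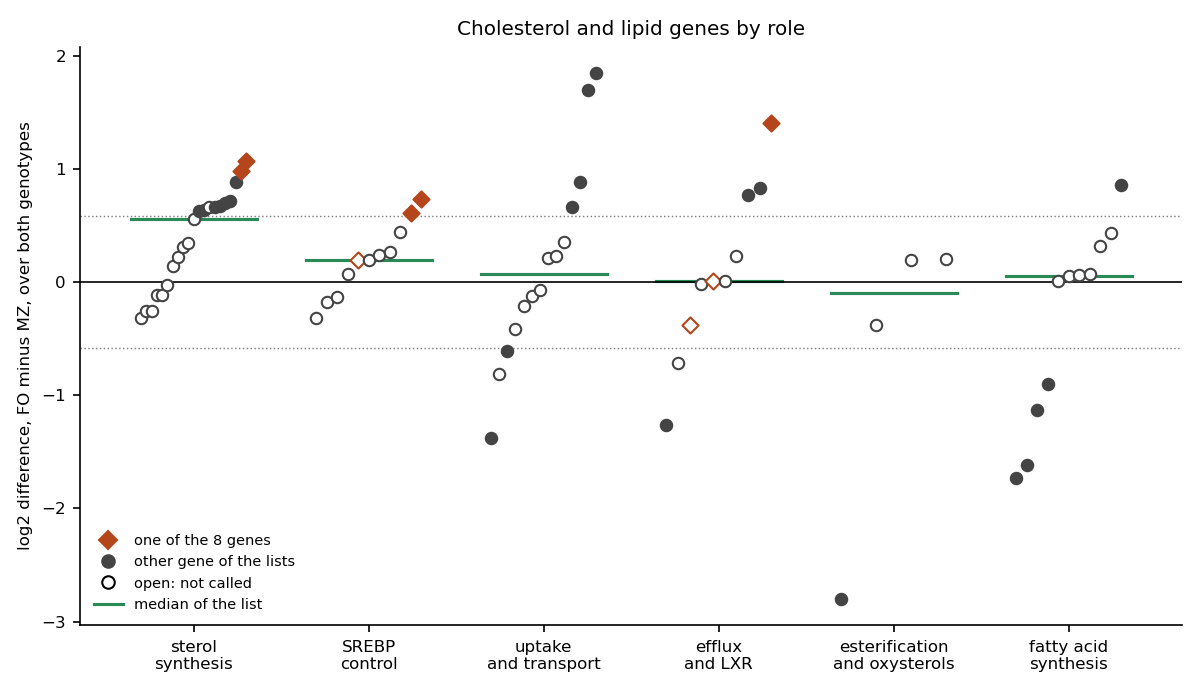
Log2 difference, FO minus MZ, over both genotypes (vertical axis) for each tested gene, by list; diamonds are the 8 members, circles the other genes, filled symbols were called, green bars are list medians and dotted lines mark 1.5-fold. Called sterol synthesis genes all lie above 0 (median 0.56), whereas called fatty acid genes, other than Acss2, lie below it.

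Across the 8 libraries, the members called in both genotypes varied together. Over these libraries, which share the same 4 groups, Pearson's r of log2 values was 0.99 between Hmgcs1 and Sqle, 0.98 between Hmgcs1 and Srebf2, and 0.99 between Sqle and Abca1, whereas r of Hmgcs1 with Apoe was -0.07 and with Abcg1 -0.92. Because the libraries fall into FO and MZ, each r mainly restates the difference between subsets. Over all genes tested, Hmgcs1 was most like Cnn2, Sike1 and Fdft1 (r = 0.99 each), the last an enzyme of the same route. Srebf2 was most like Akap13, Stk38 and Ddx6 (0.99 each). Abca1 was most like Cdc25b, Ccp110 and Rasa3 (0.997 each), and Sqle like Slco5a1 (0.997), Sp3 (0.997) and Enpp1 (0.996).

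The members with no call in either genotype differed in the genes most like them. Insig1 was most like Fth1 (0.99), Ypel5 (0.98) and Wsb1 (0.98), and among the lists Nr1h2 (0.94), the gene of an LXR. Srebf1 was most like Mycl (0.98), Rfxank (0.98) and BC043934 (0.97), and among the lists Msmo1 (0.92), and its r with Hmgcs1 was 0.82. Abcg1 was most like Gm8566, Rpl9 and Pik3cb (0.98 each), and Apoe like Cenpl (0.96), P2rx1 (0.94) and 4930455C13Rik (0.89). Apoe differed little between the groups, so its r mostly reflect the spread between replicates. All these neighbours were picked as the highest r among 14761 genes over only 8 libraries, so high values can arise without any relation. No gene of the lists exceeded an r of 0.32 with Apoe, that of Erlin1.

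**Figure D4:**
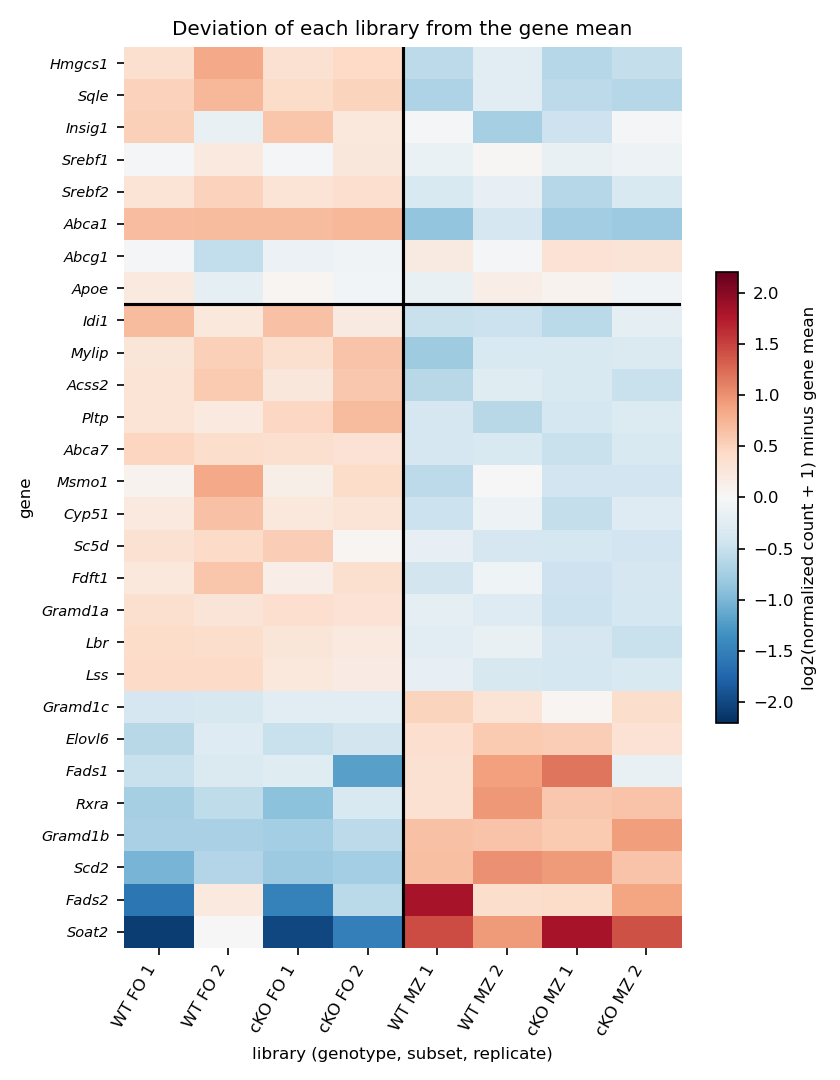
Log2(normalized count + 1) of each library minus the mean of the gene over the 8 libraries (colour), for the 8 members above the line and below it 20 other genes of the lists that were called between FO and MZ over both genotypes. Hmgcs1, Sqle, Srebf2 and Abca1 are red in the 4 FO columns and blue in the 4 MZ columns, Insig1 varies between replicates, and Apoe stays within -0.19 to 0.22.

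Between cKO and WT B cells none of the 8 genes was called in either subset. That holds for FO B cells, where 0.0677% of all genes were called, for MZ B cells (0.0339%) and for both subsets fitted together (0.149%), and the lowest limma adjusted p of a member was 0.669. DESeq2 and edgeR on the recovered reads also called 0 of the 8. The largest log2 differences between cKO and WT in FO were 0.24 for Insig1 (95% interval -0.46 to 0.94) and -0.21 for Hmgcs1 (-0.63 to 0.21). In MZ they were -0.23 for Srebf2 (-0.51 to 0.06) and 0.22 for Abcg1 (-0.15 to 0.59). Every other member lay between -0.18 and 0.19, and each interval contained 0.

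With 2 libraries a group, the width of these intervals sets what could have been seen. In both subsets the intervals of Sqle, Srebf1, Srebf2, Abca1 and Apoe excluded a 1.5-fold change, 0.585 on the log2 scale in either direction, Apoe in FO for instance at -0.02 (-0.39 to 0.35). Those of Hmgcs1 reached -0.63 in FO and -0.59 in MZ, that of Abcg1 reached 0.59 in MZ, and those of Insig1 reached to 0.94 in FO and 0.84 in MZ, so a change of that size was not detectable or excluded at this precision.

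The members' subset difference was also compared between genotypes. The interaction, the FO against MZ difference in cKO minus that in WT, ranged from -0.04 for Sqle to 0.20 for Abca1, with 0 of 8 members called and 0% of all genes (94 of 14761 at an unadjusted p under 0.05 by limma). The interval of Abca1 ran from -0.29 to 0.69.

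Over the sterol synthesis list, the sign of the difference between cKO and WT depended on single libraries. In FO all 21 genes lay below 0, from -0.03 for Ebp to -0.52 for Acat2, with a median of -0.16 against -0.0099 for all genes, but without WT FO replicate 2 only 10 of 21 did and the median was 0.0049. In MZ, 17 of 21 lay below 0, with a median of -0.12 against -0.015, and without WT MZ replicate 2 again 10 of 21 did, with a median of 0.00090. These fits without a library were chosen after seeing the data. None of the 63 other genes of the lists was called between genotypes.

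**Figure D5:**
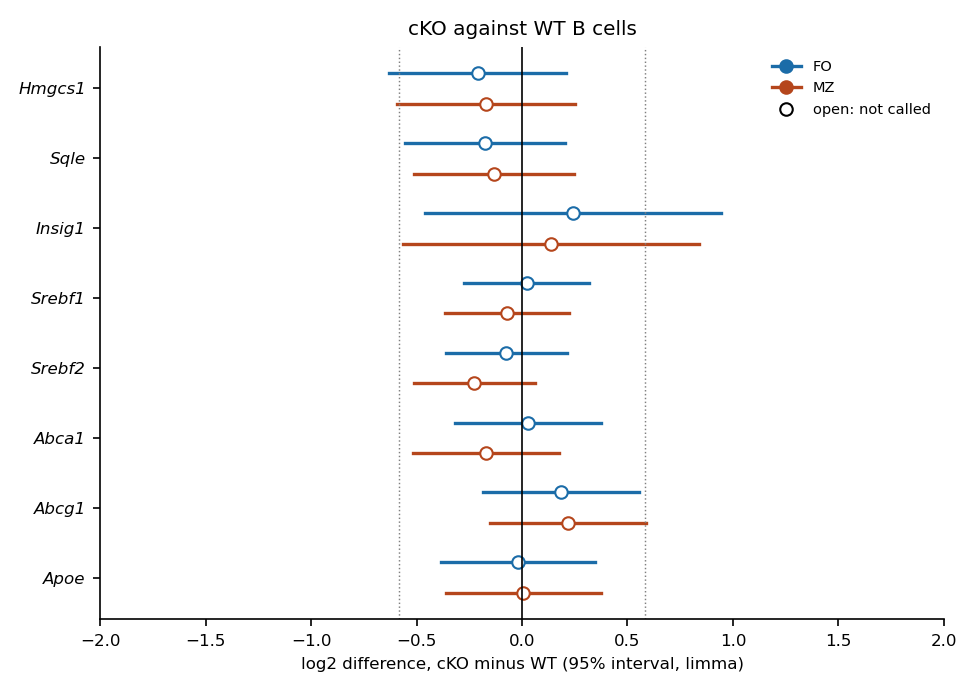
Log2 difference between cKO and WT B cells (horizontal axis) for each gene, with 95% intervals from limma in FO and in MZ; open points were not called, and dotted lines mark 1.5-fold. All 16 intervals contain 0, the widest being those of Insig1 (-0.46 to 0.94 in FO).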

How the data were processed

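RNA-seq libraries (50 base single-end reads, ribosomal RNA depleted) were aligned by the authors to mm10 with HISAT2, counted on genes and normalized with DESeq2. The deposited signal is a table of normalized counts, that is, reads over a library size factor. Multiplied back, 100% of the values came out as whole reads within a tolerance of 0.01. After 256343 blank lines were left out, 27928 genes remained. Coordinates are from GENCODE M21 (GRCm38), in which 27872 identifiers were found, and promoter windows from RefSeq.

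Log2(normalized count + 1), which understates the change of low genes, was fitted with limma 3.58.1 (lmFit, eBayes with trend) in R 4.3.3 for the 14761 genes with a mean of at least 10, over all 8 libraries, with Benjamini-Hochberg adjustment over all of them. FO was compared with MZ and cKO with WT within each level of the other factor and over both in an additive model, and their interaction was tested. Motifs were searched on both strands. Alternatives covered normalization (quantile, TMM), the pseudocount (0.5), testing without the filter, a cutoff of 2-fold or none, a replicate block, fits to only the 4 libraries compared, leaving out single libraries, and the count tools DESeq2 1.42.0 and edgeR 4.0.16 run on whole reads. Exchanging the cKO MZ numbers in the block was added once the data had been seen. The main limma fit, edgeR and DESeq2 were first run on simulated data, for cKO against WT in MZ alone. The named genes are the members, other genes of the lists that were called, and for each member the 3 genes with the highest Pearson's r. Ebp, Mvd, Acat2, Ch25h, Vldlr, Stard3, Erlin1, Rxrb and Scd1 were named after their values were seen. The members and lists were chosen with earlier results of these data known. One gene of the lists, Hsd3b7, was not found in the table. The 8 ATAC-seq samples were not analysed here, and some genes that the rule would name are not reported here.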

Additional observations from a re-analysis of the deposited data

How the results depend on the processing

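The calls of Hmgcs1, Sqle, Srebf2 and Abca1 over both genotypes held under every alternative but the 2-fold cutoff, which left 2 of 8 members (Abca1 and Sqle) in WT, 2 in cKO and 2 over both. With a library left out, 3 to 5 members were called in WT, 3 to 4 in cKO and 4 to 5 over both, and 0 in each genotype comparison. Of 960 member values under alternatives, 887 kept their direction and side of the threshold, 13 lost a call, 4 gained one and 56 changed sign, none of them a called value. Of those 56, 5 came from normalization, all near 0. With quantile normalization Apoe was at -0.069 for FO against MZ in WT and -0.11 over both, and for cKO against WT over both subsets Apoe was at 0.032 and Srebf1 at 0.0070, and with TMM Apoe was at 0.00041. The other 51 came from leaving out a library, and the cause was not tested. The ranges were, for Apoe in FO against MZ, -0.19 to 0.23 in WT, -0.086 to 0.078 in cKO, -0.077 to 0.089 over both genotypes. For cKO against WT in FO they were -0.068 to 0.44 for Abcg1, -0.23 to 0.19 for Apoe, -0.45 to 0.029 for Hmgcs1, -0.11 to 0.59 for Insig1, -0.11 to 0.16 for Srebf1 and -0.17 to 0.023 for Srebf2. In MZ they were -0.43 to 0.086 for Abca1, -0.15 to 0.16 for Apoe, -0.35 to 0.0030 for Hmgcs1, -0.21 to 0.49 for Insig1, -0.35 to 0.080 for Sqle and -0.16 to 0.018 for Srebf1, and over both subsets -0.15 to 0.050 for Abca1, -0.088 to 0.079 for Apoe and -0.088 to 0.021 for Srebf1. For the interaction they were -0.059 to 0.45 for Abca1, -0.29 to 0.22 for Abcg1, -0.23 to 0.18 for Apoe, -0.28 to 0.20 for Hmgcs1, -0.24 to 0.45 for Insig1, -0.26 to 0.17 for Sqle and -0.040 to 0.23 for Srebf1.

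Replicate numbers are shared by the groups, but the labels do not say what they mark. Deviations of same-numbered libraries correlated at 0.59 between WT FO and WT MZ, 0.29 between WT FO and cKO FO and 0.16 between WT MZ and cKO FO, but at -0.17 and -0.30 between cKO MZ and the WT groups and -0.0015 with cKO FO, so the numbers were not taken as pairs. With the replicate block 4, 4 and 5 members were called between FO and MZ in WT, in cKO and over both, and over all genes 1973, 2262 and 3002 against 1776, 2026 and 2877 without it. With the cKO MZ numbers exchanged, 4, 5 and 5 members and 2262, 2585 and 3130 genes were called. The part of counting error in the spread was not measured, and the precision rests on 2 libraries a group.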
